A study of Mus musculus with 26 samples.

Results

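The 7 genes described here are those whose response to angiotensin II (AngII) was listed as different between the mesenteric arteries and the aorta, out of 55414 gene identifiers counted in both vessels: Ttc9, Megf10, Prnp, Scube3, Fryl, Ypel2 and the non-coding AI838599. They were chosen from the readout itself. For every gene, the difference between wild-type AngII and wild-type sham vessels was taken in each tissue, and the 7 stand among the 5 highest-ranked genes in each direction of the difference between these effects, ranked by p over 18520 genes; Psat1, Cthrc1 and Unc5c, of the same top 5s, are not among them. All comparisons of wild-type AngII with wild-type sham vessels are therefore given for these genes as a description, with no test. The last gene inside on the one side, Megf10, had a tissue difference of -3.66 ± 0.495 on the log2 scale (SE, mesenteric minus aortic effect), and the next gene outside, the tropomyosin gene Tpm4, one of -0.92 ± 0.126; on the other side AI838599 was the last inside at 1.83 ± 0.291, and Pdp2 the next outside at 1.27 ± 0.207. The name of an aorta-only response rests on an adjusted p below 0.05 with edgeR. It does not hold for Scube3, which was higher in all 4 infused than in all 4 sham wild-type mesenteric libraries. Scube3 also passed the same threshold there with DESeq2, with a stricter filter and with only the groups compared. Ypel2 was not called in mesenteric arteries, but its difference there, 0.34 ± 0.111, was opposite in sign to the aortic -0.51 ± 0.0749. The common dispersion, edgeR's measure of spread between libraries, was 0.1266 in the mesenteric and 0.02858 in the aortic fit. A gene not called in mesenteric arteries is therefore not shown to be unchanged there.

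Poly(A) RNA was sequenced from both vessels of male C57BL6J mice in which both Sphk1 alleles were flanked by loxP sites in every group. The KO AngII mice (n = 5) also carried Cre under the promoter of Tagln, a smooth muscle gene, so the deletion is aimed at cells in which that promoter is or was active. They received AngII for 14 days at 490 ng/kg/min by a subcutaneous minipump, begun at 12 to 14 weeks of age. The WT AngII mice (n = 4) lacked Cre and had the same infusion, and the WT sham mice (n = 4) lacked Cre and had a sham procedure. Each vessel had 13 libraries, 26 in all, and the labels do not say which mesenteric and aortic libraries came from the same mouse. KO mice without infusion were not analysed here, and a comparison of KO AngII with WT sham vessels holds genotype and infusion together.

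AngII is a peptide hormone that contracts vascular smooth muscle through its AT1 receptor and raises blood pressure. The aorta is an elastic conduit whose wall thickens under sustained AngII, whereas mesenteric arteries are muscular resistance vessels. Sphk1 makes sphingosine-1-phosphate, a lipid signal that acts on vascular cells.

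The mesenteric libraries held 17.54 to 30.05 M gene counts each and the aortic ones 23.49 to 32.25 M. Over 10% of records were not aligned in 4 mesenteric libraries, which were 3 of 5 KO AngII, 1 of 4 WT AngII and 0 of 4 WT sham libraries; the part of this in the mesenteric comparisons was not tested beyond leaving these libraries out. Sphk1 lay between 2.814 and 4.624 CPM (normalised counts, scaled to the size of the library) in KO AngII and between 9.507 and 17.27 CPM in WT AngII mesenteric arteries, and between 1.78 and 3.426 CPM in KO AngII against 12.06 to 25.16 CPM in WT AngII aortas, with no overlap between the genotypes in either vessel. Smooth muscle markers were abundant in both vessels. Summed markers of Schwann cells and nerve reached 555.7 to 1047 CPM in mesenteric and 36.21 to 58.21 CPM in aortic libraries, and those of gut and pancreas 10.43 to 45680 CPM in mesenteric and 3.244 to 7.555 CPM in aortic libraries. The median gut and pancreas sum was 507.3 CPM in KO AngII, 224.3 CPM in WT AngII and 6447 CPM in WT sham mesenteric arteries. The ranges of these groups overlapped. The part of these cells in the mesenteric comparisons was not tested. The summed T and B lymphocyte markers stood apart in mesenteric KO AngII library 3, at 497.8 CPM, and WT AngII library 1, at 133.1 CPM.

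The start regions of the genes are shown because the members move in opposite directions in one vessel. RefSeq (build GRCm38.p6) gave a region of 250 bases before to 50 bases after the start for 5 of the 7 genes; the 3 with the widest changes among these are printed 5′ to 3′, at chr12:81630999-81631298 for Ttc9, chr2:131909678-131909977 for Prnp and chr17:28142059-28142358 for Scube3, all on the plus strand. Capitals mark AP-1 (TGANTCA), TEAD (CATTCC) and GC box (GGGCGG) letters on either strand.
Ttc9: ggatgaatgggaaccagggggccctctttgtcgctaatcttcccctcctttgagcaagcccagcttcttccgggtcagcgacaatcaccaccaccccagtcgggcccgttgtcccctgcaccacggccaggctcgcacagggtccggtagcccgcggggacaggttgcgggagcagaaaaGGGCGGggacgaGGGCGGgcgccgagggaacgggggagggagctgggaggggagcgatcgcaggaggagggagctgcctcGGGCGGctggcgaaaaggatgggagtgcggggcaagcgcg
Prnp: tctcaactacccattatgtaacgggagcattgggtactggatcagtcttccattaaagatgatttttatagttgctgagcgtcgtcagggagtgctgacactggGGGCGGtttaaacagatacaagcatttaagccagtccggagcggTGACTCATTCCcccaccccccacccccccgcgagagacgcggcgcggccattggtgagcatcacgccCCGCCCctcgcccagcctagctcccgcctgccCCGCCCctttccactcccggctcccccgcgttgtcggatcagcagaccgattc
Scube3: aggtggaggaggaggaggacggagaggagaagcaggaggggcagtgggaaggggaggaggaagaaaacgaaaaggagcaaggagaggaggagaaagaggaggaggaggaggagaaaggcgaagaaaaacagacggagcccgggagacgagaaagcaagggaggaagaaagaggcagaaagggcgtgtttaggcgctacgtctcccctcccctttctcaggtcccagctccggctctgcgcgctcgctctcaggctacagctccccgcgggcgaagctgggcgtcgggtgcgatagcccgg
The Prnp region held 1 AP-1 match and 1 TEAD match that overlap each other, and 3 GC boxes. The Ttc9 region held 3 GC boxes, and the Scube3 region none of these letters. Of 32851 start regions of 300 bases, 7.81% held the AP-1 letters, 14.7% the TEAD letters and 35.7% the GC box. The CArG box of SRF, a factor of smooth muscle genes, was in 1.63% of them and in none of the 5 regions examined, those of Fryl and Ypel2 included. These matches describe letters and not binding.

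In infused aortas 3 of the genes stood higher than in sham aortas. Ttc9 encodes a tetratricopeptide repeat protein known to bind tropomyosin and Hsp90. Its level in mesenteric arteries was 9.682, 10.77, 5.928, 8.15 and 10.01 CPM in KO AngII, 6.58, 9.747, 10.08 and 8.733 CPM in WT AngII and 9.604, 10.82, 11.08 and 11.06 CPM in WT sham libraries. In the aorta it was 17.71, 15.62, 16.35, 19.33 and 9.236 CPM in KO AngII, 19.21, 22.59, 13.52 and 25.92 CPM in WT AngII and 1.578, 1.777, 1.224 and 0.6336 CPM in WT sham libraries. Mesenteric groups overlapped throughout, while no infused aortic library came near the sham aortas, which held only 17 to 53 counts. The difference of WT AngII minus WT sham was -0.28 ± 0.173 in mesenteric arteries and 3.93 ± 0.313 in the aorta (log2 ± SE). In this bulk RNA, as for every gene here, a change in the number of cells that express the gene and a change in RNA per cell cannot be told apart.

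Megf10 is a transmembrane receptor with EGF-like repeats, known in astrocytes for the engulfment of dying cells and synapses and in muscle for satellite cells. Mesenteric libraries held 6.496, 7.226, 6.167, 6.797 and 4.271 CPM in KO AngII, 5.617, 6.697, 7.261 and 6.969 CPM in WT AngII and 6.209, 6.934, 7.73 and 7.634 CPM in WT sham mice. Aortic libraries held 4.045, 2.159, 2.149, 7.225 and 7.629 CPM in KO AngII, 5.92, 4.031, 6.198 and 3.235 CPM in WT AngII and 0.5358, 0.3782, 0.482 and 0.2236 CPM in WT sham mice. The sham aortas thus stood below every other library on 6 to 18 counts, and the KO AngII aortas spread the widest. WT AngII minus WT sham came to -0.11 ± 0.162 in mesenteric arteries and 3.54 ± 0.482 in the aorta.

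Prnp encodes the cellular prion protein, a copper-binding glycoprotein held at the cell surface by a lipid anchor and abundant in neurons. It stood at 376.9, 383.3, 293.4, 363.2 and 349.4 CPM in KO AngII, 273, 359.2, 369.3 and 375.6 CPM in WT AngII and 398.2, 344.3, 349.2 and 409.3 CPM in WT sham mesenteric arteries. Aortic levels were 149, 138, 126.7, 132.5 and 131.4 CPM in KO AngII, 144.4, 141.6, 170.2 and 171.3 CPM in WT AngII and 78.76, 88.04, 82.31 and 76.59 CPM in WT sham mice. Every mesenteric library exceeded every aortic library, and every infused aorta exceeded every sham aorta. The WT infusion difference was -0.13 ± 0.113 in mesenteric arteries and 0.93 ± 0.0827 in the aorta. Schwann cell and nerve markers summed to 555.7 to 808 CPM in KO AngII, 583 to 820 CPM in WT AngII and 709.8 to 1047 CPM in WT sham mesenteric arteries, and to 38.68 to 54.89, 36.21 to 58.21 and 39.15 to 46.36 CPM in the aortas of those groups. Within the aorta these ranges overlap between infused and sham vessels. Of the 8 markers 2, Mbp and S100b, were higher and 1, Prx, lower in KO AngII than in WT sham aortas (edgeR), with 0 to 4 higher when 1 library was left out: 0 without WT sham library 2 or 3, 1 without KO AngII library 1 or 2 or WT sham library 1 and 4 without KO AngII library 3. The difference of KO AngII from WT sham was called between the vessels for 4 of the 8 (3.69% of all genes were called), in the direction of Prnp, as for Mbp at -1.42 ± 0.32 (mesenteric minus aorta, edgeR adjusted p = 0.013). The part of these cells in the Prnp levels was not tested. Prn, an annotated readthrough transcript that overlaps Prnp, had 0 to 2 counts in any library.

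The other 4 genes stood lower in infused than in sham aortas. Scube3 encodes a secreted and cell-surface glycoprotein with EGF-like repeats and a CUB domain; SCUBE proteins are known as helpers of BMP and hedgehog signals. It measured 246.2, 183.8, 152.8, 192.4 and 262.6 CPM in KO AngII, 286.1, 194.1, 272.6 and 217.8 CPM in WT AngII and 107.6, 149.6, 128.3 and 133.3 CPM in WT sham mesenteric arteries. In aortas it measured 225.4, 259, 335.1, 258.2 and 247 CPM in KO AngII, 147.4, 278.8, 255.4 and 376.3 CPM in WT AngII and 649.8, 641.7, 712.3 and 640.4 CPM in WT sham mice. The infused libraries were all above the sham libraries in mesenteric arteries and all below them in the aorta. WT AngII minus WT sham was 0.90 ± 0.175 in mesenteric arteries and -1.34 ± 0.211 in the aorta. Smooth muscle markers summed to 20420 to 34680 CPM in KO AngII, 19720 to 38160 CPM in WT AngII and 33810 to 41390 CPM in WT sham aortas, with 5 of 10 markers lower and none higher in KO AngII than in WT sham aortas (edgeR; 14.2% of all genes were lower). With library size alone in place of TMM, which shifted the median of all genes by -0.105, 8 of the 10 were lower, and with 1 library left out 4 to 7. In the library order used for Scube3, the sums were 25250, 27470, 34680, 23720 and 20420 CPM in KO AngII aortas. They were 19720, 29230, 33430 and 38160 CPM in WT AngII and 37910, 41390, 39030 and 33810 CPM in WT sham aortas. The part of these markers in the Scube3 level was not tested.

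Fryl encodes a large protein related to furry, which works with NDR kinases in Drosophila. Its mesenteric levels were 131.8, 122, 109.6, 128.2 and 123.8 CPM in KO AngII, 148.8, 128.1, 159.1 and 134.2 CPM in WT AngII and 128.7, 161.2, 154.1 and 136.2 CPM in WT sham mice. Its aortic levels were 62.08, 79.75, 79.88, 77.37 and 64.49 CPM in KO AngII, 58.81, 65.78, 58.79 and 68.83 CPM in WT AngII and 119.4, 108.3, 114.6 and 120 CPM in WT sham mice. All infused aortas lay below all sham aortas, and mesenteric groups overlapped. On the log2 scale, WT AngII minus WT sham was -0.03 ± 0.0915 in mesenteric arteries and -0.89 ± 0.092 in the aorta.

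Ypel2 belongs to the yippee-like family of small zinc-binding proteins, whose role in vessels is little known. Mesenteric values were 36.58, 29.55, 34.89, 27.93 and 33.84 CPM in KO AngII, 41.46, 43.2, 42.64 and 38.8 CPM in WT AngII and 30.7, 39.95, 31.82 and 28.92 CPM in WT sham mice. Aortic values were 45.4, 45.84, 49.29, 42.26 and 46.94 CPM in KO AngII, 47.75, 41.07, 42.41 and 42.54 CPM in WT AngII and 68.07, 61.3, 56.21 and 58.96 CPM in WT sham mice. The 3 mesenteric groups overlapped except that each KO AngII library was below each WT AngII library. WT AngII minus WT sham was 0.34 ± 0.111 in mesenteric arteries and -0.51 ± 0.0749 in the aorta.

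AI838599 is annotated as a long intergenic non-coding RNA with no function given here. Its mesenteric counts gave 21.81, 29.66, 22.4, 22.23 and 36.77 CPM in KO AngII, 24.66, 33.15, 31.21 and 33.94 CPM in WT AngII and 28.02, 41.38, 21.79 and 42.23 CPM in WT sham mice. Its aortic counts gave 19.6, 30.81, 34.79, 29.17 and 32.37 CPM in KO AngII, 22.48, 32.47, 24.87 and 33.02 CPM in WT AngII and 108.9, 117.1, 95.96 and 112.2 CPM in WT sham mice. The sham aortas stood apart and all other groups overlapped. In log2 terms WT AngII minus WT sham was -0.12 ± 0.221 in mesenteric arteries and -1.96 ± 0.162 in the aorta.

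**Figure D1:**
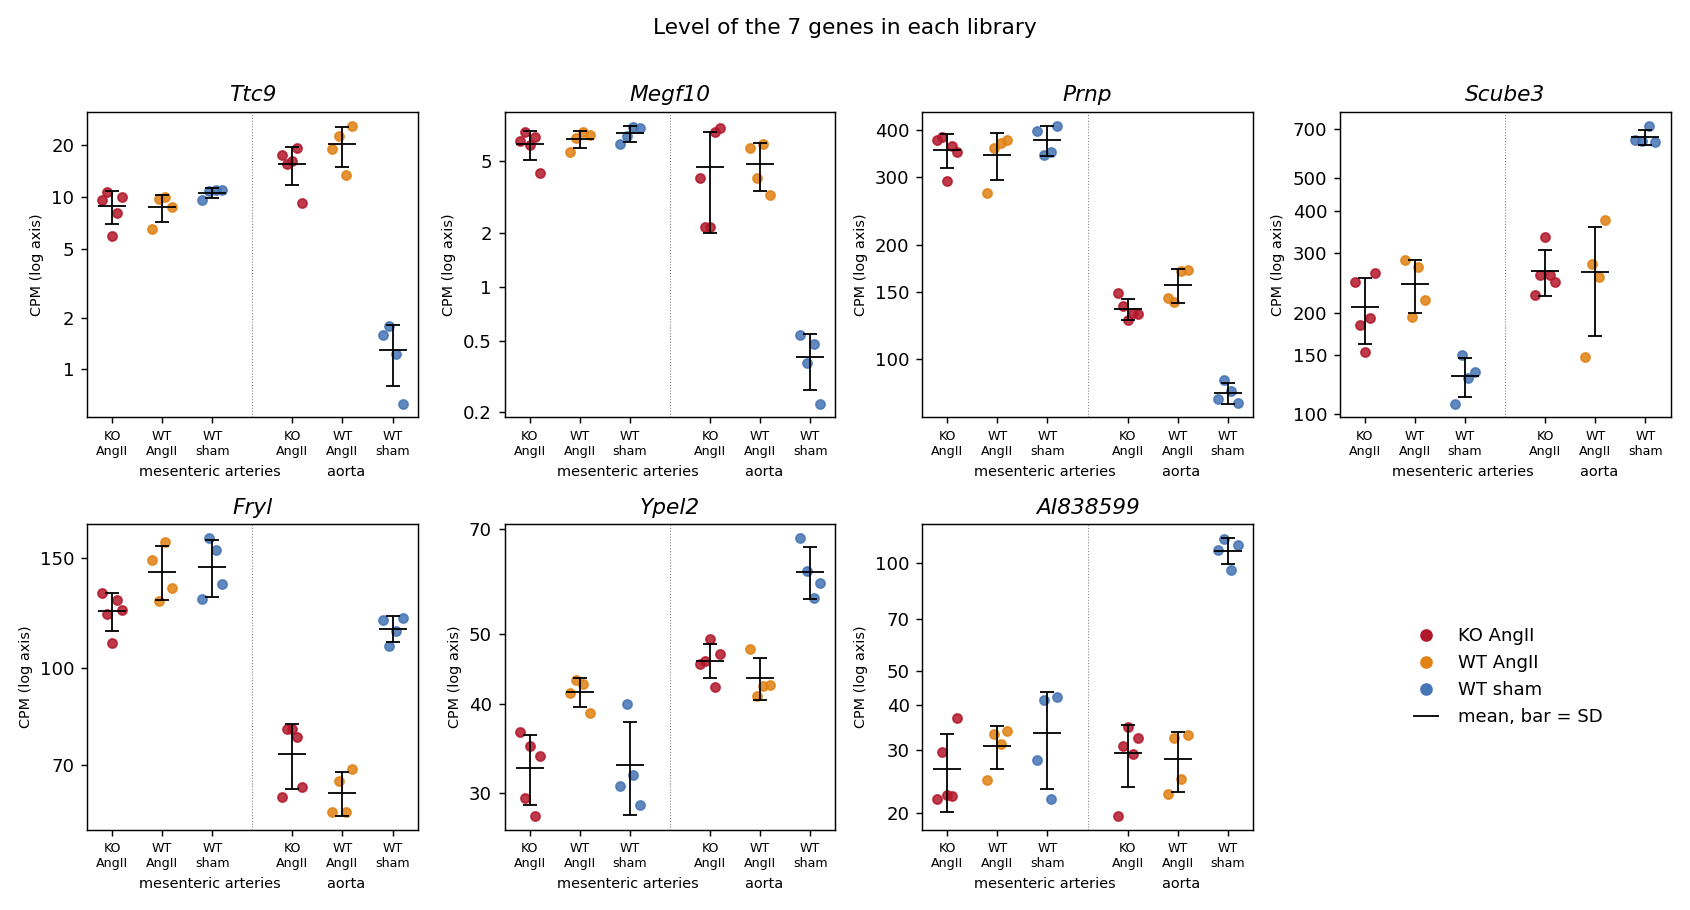
Level of each gene in CPM on a log axis, 1 point per library, with mesenteric arteries on the left and the aorta on the right of each panel; black marks give the mean and bars the SD of 5 KO AngII, 4 WT AngII and 4 WT sham libraries. The sham aortas sit apart from the infused aortas in all 7 panels, at 0.4049 CPM on average for Megf10 and 661 CPM for Scube3.

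By mean level, the sham aorta was at one end of the 6 groups for 6 of the genes: lowest for Ttc9 (1.303 ± 0.5016 CPM, SD), Megf10 (0.4049 ± 0.1374 CPM) and Prnp (81.42 ± 4.998 CPM), and highest for Scube3 (661 ± 34.42 CPM), Ypel2 (61.14 ± 5.072 CPM) and AI838599 (108.5 ± 9.043 CPM). Fryl was the exception, with its highest mean in sham mesenteric arteries (145 ± 15.18 CPM) and its lowest in WT AngII aortas (63.05 ± 5.064 CPM). For Ttc9 and Megf10 each other group overlapped its neighbour in this order. Scube3 had another gap at the low end, between KO AngII and WT sham mesenteric arteries (207.6 ± 45.59 and 129.7 ± 17.32 CPM), and Prnp one between WT AngII mesenteric arteries and WT AngII aortas (344.3 ± 47.98 and 156.9 ± 16.06 CPM).

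All 7 genes passed the low-count filter in both tissues. By the same call rule, edgeR's quasi-likelihood test with Benjamini-Hochberg adjusted p below 0.05 over all genes, WT AngII against WT sham gave 0 of the 7 in mesenteric arteries, where 0.183% of genes were called, and 7 of 7 in the aorta, where 25.5% were. No library of one group overlapped the other for 1 of the 7 in mesenteric arteries (Scube3; 8.82% of all genes) and for 7 of 7 in the aorta (23.9% of all genes). The tissue difference of this effect gave 7 of 7, where 2.34% of genes were called. These counts follow from how the genes were chosen.

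KO AngII against WT sham vessels put the KO libraries, which the choice did not use, against the same sham libraries that it did use, so these values are not independent of the choice. In mesenteric arteries 0 of 7 genes were called (0.708% of all genes), with log2 differences of -0.26 ± 0.164 for Ttc9, -0.20 ± 0.153 for Megf10 and -0.08 ± 0.107 for Prnp. Among the genes lower in infused aortas, the mesenteric difference was 0.68 ± 0.167 for Scube3, with every KO library above every sham library, as 6.82% of all genes had no overlap there (edgeR adjusted p = 0.0811), -0.23 ± 0.0866 for Fryl, -0.01 ± 0.105 for Ypel2 and -0.33 ± 0.209 for AI838599. At an unadjusted p below 0.05, edgeR had 2 of the 7, against 19.1% of all genes. At an adjusted p below 0.05, DESeq2 called 1 of the 7, Scube3, against 8.09% of all genes. In the aorta 7 of 7 were called, against 30.8% of all genes; 3 were higher, as were 16.6% of all genes, and 4 lower, as were 14.2%. All 7 were free of overlap, against 32.3% of all genes. Ttc9 rose by 3.56 ± 0.305 (edgeR adjusted p = 5.57e-06), Megf10 by 3.47 ± 0.472 and Prnp by 0.72 ± 0.0789. AI838599 fell by 1.90 ± 0.15 (edgeR adjusted p = 2.75e-06), Scube3 by 1.33 ± 0.196, Fryl by 0.68 ± 0.0862 and Ypel2 by 0.43 ± 0.0706. The difference between the vessels passed for 5 of 7 genes, against 3.69% of all genes: -3.83 ± 0.348 for Ttc9, -3.69 ± 0.473 for Megf10, -0.82 ± 0.136 for Prnp, 2.00 ± 0.276 for Scube3 and 1.56 ± 0.275 for AI838599 (mesenteric minus aorta). Fryl at 0.43 ± 0.125 (edgeR adjusted p = 0.0533) and Ypel2 at 0.40 ± 0.124 (edgeR adjusted p = 0.0764) did not pass. Beside these values, all 8 proliferation markers and all 8 macrophage markers were also higher in KO AngII than in WT sham aortas; the proliferation sum was 47.38 to 84.45 CPM in KO AngII and 9.616 to 14.26 CPM in WT sham aortas, and the macrophage sum 894.6 to 1059 CPM and 514.3 to 630.7 CPM in those groups. Of 8 fibroblast markers 5 were higher and 0 lower in KO AngII than in WT sham aortas, at sums of 7625 to 10560 CPM in KO AngII and 5841 to 6222 CPM in WT sham aortas; 3 were higher with library size alone, and 3 without KO AngII library 1 or 5 or WT sham library 2, 3 or 4. Between the vessels, the difference from sham was called for 1 of 8 fibroblast markers, Dpt, at -1.52 ± 0.405 (mesenteric minus aorta, edgeR adjusted p = 0.0363). Dpt is a matrix gene, and its direction was that of Ttc9, Megf10 and Prnp. Such a difference was also called for 1 of 8 macrophage markers, Ccr2, at -2.60 ± 0.548, and for 0 of 8 proliferation markers. In mesenteric arteries the macrophage sum was 284.9 to 1848 CPM in KO AngII and 196.5 to 377.5 CPM in WT sham libraries, and the proliferation sum was 32.82 to 99.62 CPM in KO AngII and 13.62 to 14.33 CPM in WT sham libraries. The top of both KO AngII ranges was library 3, in which the lymphocyte markers also stood apart. The next highest sums were 724.8 CPM for macrophages and 59.65 CPM for proliferation. The part of macrophages, fibroblasts and dividing cells in the levels of the 7 genes was not tested.

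**Figure D2:**
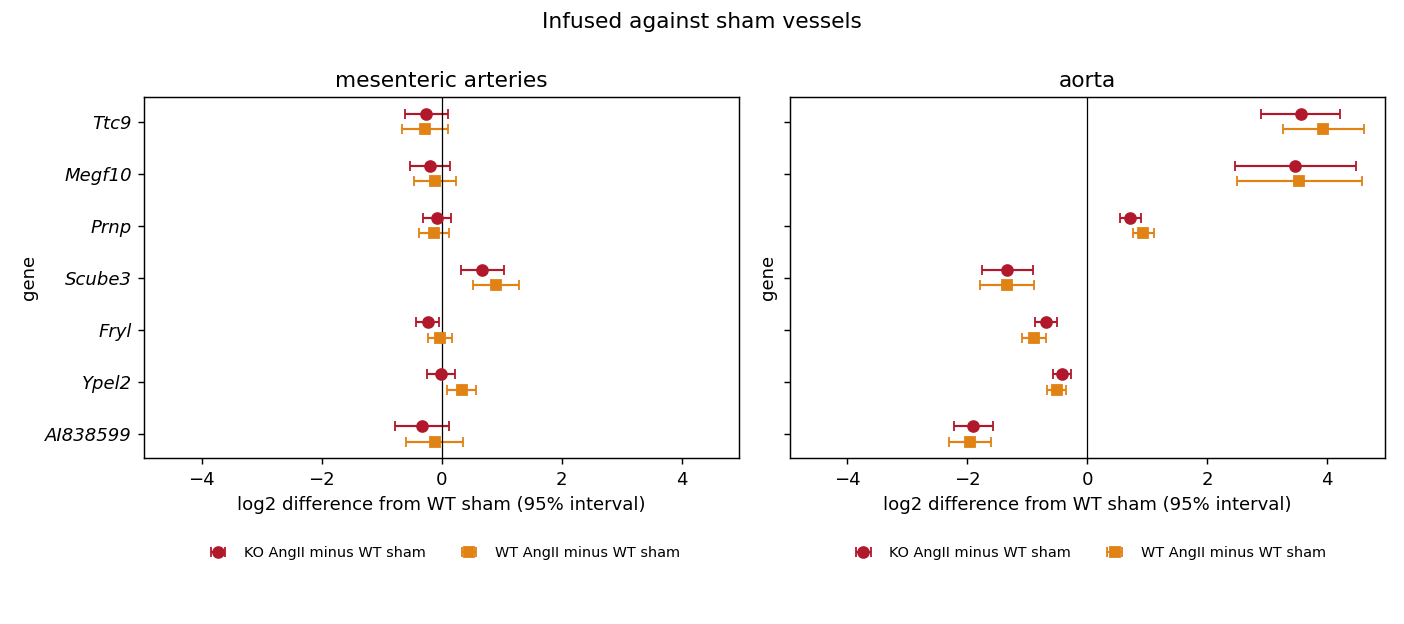
Log2 difference from WT sham (x axis, points with 95% intervals) for KO AngII (circles) and WT AngII (squares), in mesenteric arteries (left) and the aorta (right). The 2 sets share the sham libraries; in the aorta Ttc9 lies at 3.56 for KO AngII and 3.93 for WT AngII, and in mesenteric arteries Scube3 lies at 0.68 and 0.90.

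The deletion of Sphk1 under infusion was examined by setting KO AngII against WT AngII vessels. The choice used the WT AngII libraries, so the differences and p values below, those of the permutations included, are not independent of the choice. None of the 7 genes was called in either vessel, where 0.00571% of genes passed in mesenteric arteries and 0.00593% in the aorta. That share was 1 gene in each vessel, the deleted Sphk1 itself (edgeR adjusted p = 0.0101 in mesenteric arteries and 0.00046 in the aorta). In mesenteric arteries Ypel2 differed by -0.34 ± 0.105 (edgeR adjusted p = 0.798), with all 5 KO AngII libraries below all 4 WT AngII libraries; 1.69% of all genes showed no overlap there. The exact two-sided permutation p for Ypel2 taken alone was 0.0159. Fryl was at -0.21 ± 0.0866 (edgeR adjusted p = 0.798, exact permutation p = 0.0397), and the other 5 lay between -0.22 ± 0.164 for Scube3 and 0.04 ± 0.107 for Prnp. In the aorta the largest difference was that of Ttc9, at -0.38 ± 0.243 with a 95% interval of -0.9005 to 0.1489, and the smallest that of Scube3, at 0.002 ± 0.197 with an interval of -0.4206 to 0.4247. Prnp was at -0.21 ± 0.0775 (edgeR adjusted p = 0.981, exact permutation p = 0.0476) and Fryl at 0.20 ± 0.0872 (edgeR adjusted p = 0.981, exact permutation p = 0.0952). The KO AngII and WT AngII aortas overlapped for all 7 genes, and 0.955% of all genes had no overlap. At an unadjusted p below 0.05, edgeR, DESeq2 and voom each had 2 of the 7 in each vessel, and none called any. Of all genes, 4.98% with edgeR, 6.27% with DESeq2 and 4.17% with voom were below that p in mesenteric arteries, and 3.61%, 3.91% and 3.66% with these tools in the aorta. The interval for Megf10 in the aorta, -0.8669 to 0.7346, leaves differences of either sign possible, and these tests do not show that the genotypes are alike.

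The difference of the KO effect between the vessels was not called for any gene by edgeR (0% of all genes), and DESeq2 called 15. Of 18520 genes, 749 had an unadjusted edgeR p below 0.05, a share smaller than that threshold itself. This contrast holds the WT AngII libraries that the choice used, with the opposite sign, so its values are not independent of the choice. Fryl had -0.42 ± 0.125 and Ypel2 -0.43 ± 0.124 (mesenteric minus aorta, edgeR adjusted p = 0.953 for both). For both, KO AngII was below WT AngII in mesenteric arteries and above it in the aorta by mean.

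**Figure D3:**
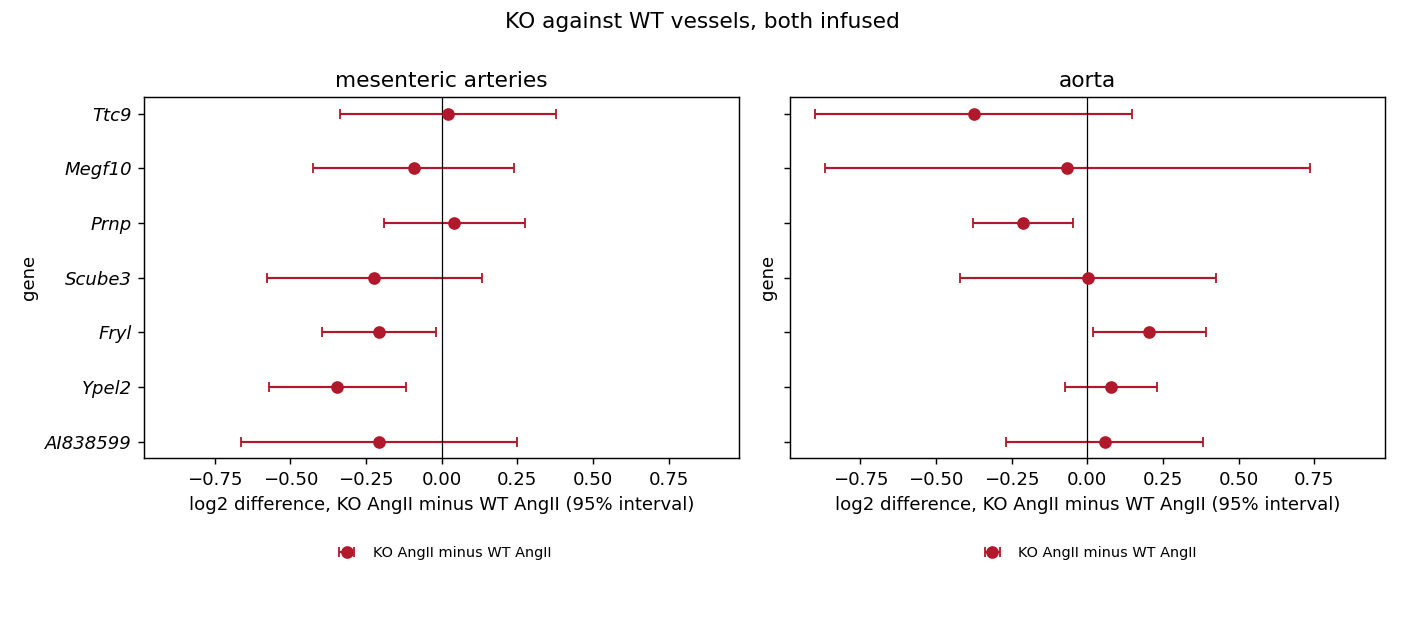
Log2 difference of KO AngII minus WT AngII (x axis, points with 95% intervals) for each gene, in mesenteric arteries (left) and the aorta (right). Ypel2 lies at -0.34 in mesenteric arteries and at 0.08 in the aorta, and the Megf10 interval in the aorta is the widest drawn, from -0.8669 to 0.7346.

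The levels in the 2 vessels were set against each other in KO AngII mice, 5 libraries each, none of which the choice used. Of the 7 genes 4 were called, 2 higher and 2 lower in mesenteric arteries, beside 47.6% of all genes that were called; 26.8% of all genes were higher and 20.8% lower. Prnp was higher by 1.38 ± 0.0919 (353.2 ± 35.92 CPM in mesenteric arteries and 135.5 ± 8.548 CPM in the aorta, SD; edgeR adjusted p = 2.75e-11) and Fryl by 0.76 ± 0.0836 (123.1 ± 8.43 and 72.71 ± 8.709 CPM; edgeR adjusted p = 1.02e-07). Ypel2 was lower, at -0.50 ± 0.0831 (32.56 ± 3.664 and 45.95 ± 2.552 CPM; edgeR adjusted p = 3.44e-05). For these 3 genes no mesenteric and aortic libraries overlapped, as for 32.5% of all genes, and each exact permutation p was 0.00794, the smallest that 252 regroupings can give. The edgeR and permutation tests given here took the libraries as independent. The 2 vessels may come from the same mice, but the labels do not match them, so no pairing entered these p values. Ttc9 was lower, at -0.81 ± 0.218 (8.907 ± 1.918 and 15.65 ± 3.855 CPM; edgeR adjusted p = 0.00384, exact permutation p = 0.0317), a call lost without the 4 mesenteric libraries with over 10% of records not aligned (log2 difference -0.67, edgeR adjusted p = 0.0594), a fit that keeps 2 of 5 KO AngII mesenteric libraries. Megf10 at 0.42 ± 0.29, Scube3 at -0.35 ± 0.182 and AI838599 at -0.14 ± 0.184 did not pass.

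In WT mice the same gap, which the choice used and which is given with no test, was wide in sham vessels. Mesenteric arteries held 17.27-fold more Megf10, 8.113-fold more Ttc9 and 4.609-fold more Prnp than the aorta, and the aorta 5.096-fold more Scube3, 3.252-fold more AI838599 and 1.861-fold more Ypel2 than mesenteric arteries. In WT AngII vessels the mesenteric minus aortic gap was -1.21 ± 0.246 for Ttc9, on the other side of 0 from the sham gap of 3.02 ± 0.274. It was 0.45 ± 0.324 under AngII against 4.11 ± 0.386 in sham vessels for Megf10, and 1.13 ± 0.102 against 2.20 ± 0.105 for Prnp. Scube3 had -0.12 ± 0.204 against -2.35 ± 0.214, AI838599 0.13 ± 0.205 against -1.70 ± 0.208 and Ypel2 -0.06 ± 0.0926 against -0.90 ± 0.0931. Fryl went the other way, with 1.18 ± 0.0942 under AngII and 0.33 ± 0.0929 in sham vessels. The gap was thus smaller in infused than in sham vessels for 6 of 7 genes, whether WT AngII or KO AngII vessels were set against sham. Among the 434 genes with a called tissue difference this held for 54.4% with WT AngII and 58.8% with KO AngII, and among all 18520 genes for 49.8% and 49.4%. The choice ranked genes by the change of this gap in WT mice, and the KO AngII count uses the same sham vessels. Neither count of the 7 genes is therefore independent of the choice.

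**Figure D4:**
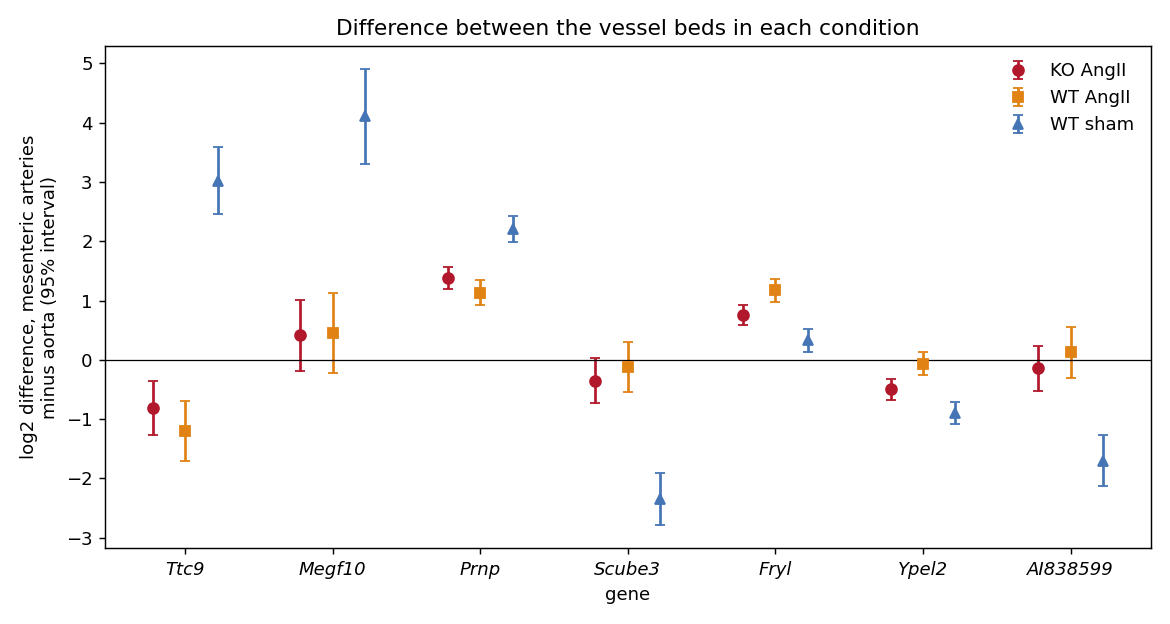
Log2 difference of mesenteric arteries minus aorta (y axis, points with 95% intervals) for each gene in KO AngII (circles), WT AngII (squares) and WT sham (triangles) mice. The sham points lie from -2.35 for Scube3 to 4.11 for Megf10, and the KO AngII points from -0.81 for Ttc9 to 1.38 for Prnp.

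Relatives and partners of the 7 genes were counted in 6 lists, with calls by the same rule over all genes. No listed gene was called for KO AngII against WT AngII in either vessel, or for KO AngII against WT sham in mesenteric arteries. The counts below are for KO AngII against WT sham aortas, where 30.8% of all genes passed. The lists were chosen with earlier results of these data known. The choice of the 7 genes used the same sham libraries. With library size alone in place of TMM no called gene of these lists changed sign in that comparison, and calls lost with it are given beside the gene where it is named.

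Of 19 tested relatives of Ttc9 (other TTC9 genes, tropomyosins and Hsp90 co-chaperones), 4 were higher and 5 lower in KO AngII than in WT sham aortas, at a list median of -0.0798 beside -0.00846 for all genes. With 1 library left out the counts were 3 to 4 higher and 3 to 8 lower (3 lower without KO AngII library 5 or WT sham library 2, 8 without WT AngII library 3), and with library size alone 3 and 9. Tpm4, a tropomyosin of the non-muscle cytoskeleton, rose by 1.10 ± 0.0922 (edgeR adjusted p = 2.75e-06), Tpm3 rose by 0.54 ± 0.0606 and Fkbp5, a co-chaperone of steroid receptors, by 1.25 ± 0.196. Tpm4 was the only gene of this list whose difference from sham was called between vessels, at -0.88 ± 0.119 (mesenteric minus aorta, edgeR adjusted p = 0.000154). It was also the next gene outside the choice, in a contrast with the same sham libraries, so this call is not independent of the choice.

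Of 25 tested genes for the engulfment of dying cells, 7 were higher and 5 lower in KO AngII than in WT sham aortas, with a median of 0.141, and with 1 library left out 7 to 8 were higher and 2 to 5 lower (2 or 3 without KO AngII library 1, 2 or 5 or WT sham library 1 or 3). The 3 chains of complement C1q led, C1qb at 0.80 ± 0.123, C1qc at 0.63 ± 0.0989 and C1qa at 0.57 ± 0.0905; C1qa is in the macrophage list as well. Adgrb1, a receptor for phosphatidylserine on dying cells that was named after its values were seen, fell by 2.10 ± 0.358 (edgeR adjusted p = 0.000522).

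Of 12 tested genes around the prion protein, 6 were higher and 2 lower in KO AngII than in WT sham aortas, with a median of 0.31, and with 1 library left out 6 to 7 were higher and 2 lower. Adam8, a membrane protease, rose by 1.91 ± 0.242 (edgeR adjusted p = 5.42e-05), Sprn, a prion-like protein, by 0.90 ± 0.142 and Adam17, the protease that releases TNF, by 0.48 ± 0.0833. The difference from sham of Fyn, a tyrosine kinase, was called between vessels, at -0.81 ± 0.165 (mesenteric minus aorta, edgeR adjusted p = 0.00596), as was that of Adam17, at -0.64 ± 0.147 (edgeR adjusted p = 0.0151).

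Of 17 tested SCUBE and hedgehog genes, 5 were higher and 2 lower in KO AngII than in WT sham aortas, with a median of -0.0269, and with 1 library left out 2 to 6 were higher and 2 lower (2 higher without WT sham library 2 and 3 without WT sham library 3). Scube1, a paralogue of Scube3, rose by 2.00 ± 0.227 (edgeR adjusted p = 2.27e-05), and Disp1, which releases hedgehog ligands, by 0.57 ± 0.0921, whereas Scube3 itself fell there. Between the vessels of KO AngII mice, where 47.6% of all genes were called, 3 of these 17 genes were higher and 10 lower in mesenteric arteries, with a list median of -0.634 beside 0.0584 for all genes. Dhh, a hedgehog ligand of Schwann cells, was higher by 2.72 ± 0.264, beside the nerve marker sums given above, whose part in it was not tested. Boc, a hedgehog co-receptor, was lower at -1.27 ± 0.163 and Gli1, a transcription factor and target of the pathway, at -1.12 ± 0.146 (edgeR adjusted p = 1.04e-06 and 1.24e-06).

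Of 21 tested genes of the FRY family, NDR kinases and the Hippo pathway, 5 were higher and 4 lower in KO AngII than in WT sham aortas, with a median of 0.0942. With 1 library left out 2 to 7 were higher and 3 to 4 lower (2 or 3 higher without KO AngII library 1, 3, 4 or 5 or any WT sham library), and with library size alone 1 was higher and 5 lower. Tead3, a DNA-binding factor of the pathway, fell by 0.48 ± 0.111 and Wwtr1, the co-activator TAZ, rose by 0.41 ± 0.0974. Fry, the paralogue of Fryl, named after its values were seen, fell by 0.33 ± 0.0946 (edgeR adjusted p = 0.0167).

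Of 12 tested YPEL and GID/CTLH genes, 1 was higher and 1 lower in KO AngII than in WT sham aortas, with a median of 0.0157. Gid4, a substrate receptor of that ubiquitin ligase, fell by 0.44 ± 0.0834, and Maea, one of its RING subunits, rose by 0.23 ± 0.0725, a call lost with library size alone (edgeR adjusted p = 0.123) and without KO AngII library 1 or 4 or WT sham library 1, 3 or 4, which left 0 higher; without WT AngII library 1 or 4, 2 were higher. No paralogue of Ypel2 was called in that comparison. Between the vessels of KO AngII mice, Ypel4 was lower in mesenteric arteries, at -1.19 ± 0.174, and Ypel1 at -0.90 ± 0.304.

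The genes most like each member were taken by Pearson's r of log2 CPM over the 13 aortic libraries among 11992 genes, as a description with no p. These libraries form a sham and an infused cluster, so r is given again within the 9 infused aortas. Ttc9 was most like Fn1, the gene of fibronectin, at 0.989 over all and 0.774 within the infused aortas. Megf10 was most like Slc41a2, a magnesium transporter gene, at 0.985 over all and 0.908 within the infused aortas. For Prnp the nearest gene was Fxyd5, of the FXYD regulators of ion transport, at 0.981 over all and 0.9 within the infused aortas. Each of these values was lower within the infused aortas, as were those of the next 4 genes.

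Scube3 was most like Gucy1b1, a subunit of the soluble guanylate cyclase that senses nitric oxide in smooth muscle, at 0.996 over all and 0.982 within the infused aortas. Fryl was most like Suclg2, a mitochondrial enzyme subunit, at 0.973 over all and 0.871 within the infused aortas. Ypel2 was most like Ggta1, a glycosyltransferase gene, at 0.952 over all and 0.807 within the infused aortas. AI838599 was most like Chd6, a chromatin remodeller, at 0.986 over all and 0.89 within the infused aortas. In mesenteric arteries the likest genes and the members parted in some pairs: WT AngII minus WT sham was -0.15 for Gucy1b1 beside 0.90 for Scube3, and 1.14 for Fn1 beside -0.28 for Ttc9.

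**Figure D5:**
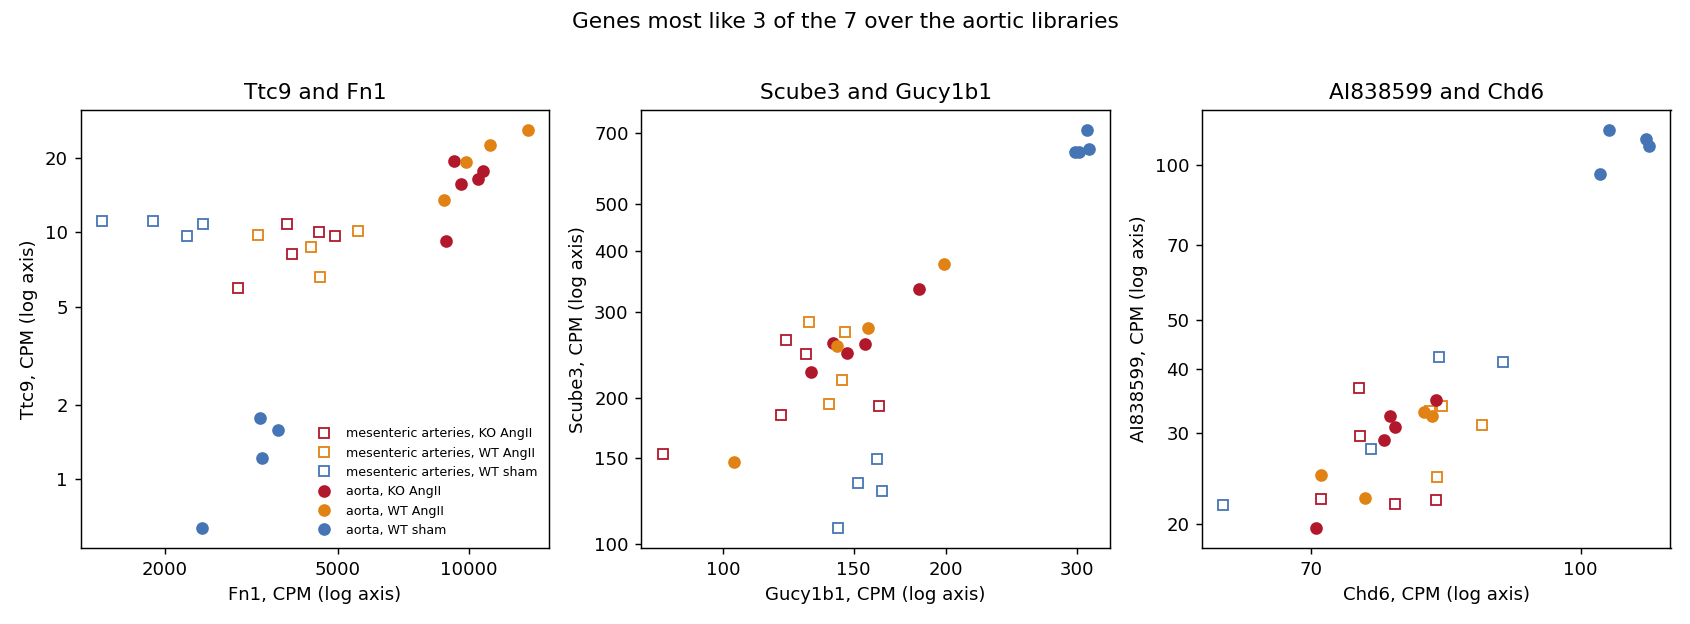
CPM of Ttc9, Scube3 and AI838599 (y axes, log) against the gene most like each over the aortic libraries (x axes, log), 1 point per library; filled circles are aortas and open squares mesenteric arteries, coloured by KO AngII, WT AngII and WT sham. The sham aortas stand apart from the infused aortas in each panel, and the mesenteric points lie off the aortic line for Ttc9, where they stay between 5.928 and 11.08 CPM.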

How the data were processed

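RNA from the mesenteric arteries and the aorta of KO AngII, WT AngII and WT sham mice was read as 2 x 150 bp pairs on an Illumina NovaSeq from NEBNext Ultra II Directional libraries, per the labels' protocols. The authors deposited a table of raw counts per Ensembl identifier for each library; cutadapt, HISAT2, HTSeq and the build GRCm39 are named in the submitters' processing notes, without versions. Strand setting and annotation release are not given in the sources used here, so reads of overlapping or antisense genes cannot be told apart. The 5 HTSeq summary lines were left out throughout: of all records, 0.5717 to 14.7% were not aligned, 4.816 to 12.99% not unique, 6.635 to 11.12% outside features, 1.17 to 1.613% ambiguous and 1.96 to 3.555% low in quality. Reads carry no molecular identifiers, so counts are not independent molecules.

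Counts were analysed with edgeR 4.0.16 under R 4.3.3: filterByExpr, TMM, robust quasi-likelihood F tests and Benjamini-Hochberg adjustment over all genes, with a call at an adjusted p below 0.05. Within-tissue differences come from a fit of the 13 libraries of that tissue and differences between tissues from a fit of all 26, over the 55414 identifiers that both share; printed CPM values are scaled over all 26. Log2 CPM carries a prior count of 2. Values after ± are SE for log2 differences and SD for CPM. Exact two-sided permutation tests used log2 CPM of the 2 groups. The median of all genes shifted with library size alone in place of TMM, by -0.126 for WT AngII and -0.105 for KO AngII against WT sham aortas, 0.106 for the difference of the KO AngII effect between vessels and 0.196 for KO AngII mesenteric arteries against aortas.

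The 7 genes, the related and marker lists and the tests were chosen with earlier results of these data known. Named besides the members were the genes most like each one, up to 3 called genes per related list and comparison with the smallest adjusted p, and Sphk1. Alternatives were DESeq2 1.42.0, voom of limma 3.58.1, a stricter filter or none, RLE factors, scaling by library size alone, the replicate number as a block, only the groups compared and each library left out. Chosen after seeing the data were fits without the 4 mesenteric libraries over 10% not aligned, and without mesenteric KO AngII library 3 and WT AngII library 1. No pair of libraries of one group was a copy: chi-square per degree of freedom was 9.086 to 254.8 over 44 pairs. Start regions were read from RefSeq tables of GRCm38.p6 and no coordinates were converted. Each motif was searched on both strands.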

Additional observations from a re-analysis of the deposited data

Results flagged for a closer look

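In 2 of 42 gene and group combinations the highest or lowest library stood apart from the others of its group; chance flags about 1 in 20 such groups. Prnp in WT AngII mesenteric library 1 was at 273 CPM, the nearest of its group being at 359.2 CPM. Scube3 in WT sham aortic library 3 was at 712.3 CPM, the nearest being at 649.8 CPM. WT AngII mesenteric library 1 is also one of the 4 with over 10% of records not aligned and one of the pair with high lymphocyte markers; the part of these in the Prnp level was not tested.

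The difference from sham in one vessel was set against that in the other. For WT AngII this is the contrast by which the genes were chosen, so its values are a description and no test: mesenteric minus aortic, they were -4.226 for Ttc9, -3.657 for Megf10, -1.07 for Prnp, 2.225 for Scube3, 0.8492 for Fryl, 0.8312 for Ypel2 and 1.827 for AI838599 (log2). For KO AngII, against the same sham libraries and so not independent of the choice, 5 genes passed edgeR's test of the difference, at -3.834 for Ttc9, -3.695 for Megf10, -0.8219 for Prnp, 1.997 for Scube3 and 1.556 for AI838599.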

How the results depend on the processing

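Over the 70 combinations of gene and comparison and all alternatives, 1932 values were recomputed: 1909 kept their direction and side of the threshold, or stayed uncalled, 22 passed it newly, 1 no longer passed and 0 called values reversed. For WT AngII against WT sham mesenteric arteries 0 genes were called, but 1, Scube3, with DESeq2, with the stricter filter and with only the groups compared, and 0 to 1 with 1 library left out (1 without KO AngII library 3); the choice used this comparison, so these counts are a description. For KO AngII against WT sham mesenteric arteries 0 were called, but 1, again Scube3, with DESeq2, without the 4 libraries over 10% not aligned and without KO AngII library 3 and WT AngII library 1, and 0 to 1 with 1 library left out (edgeR adjusted p = 0.0426 without KO AngII library 3). The difference between vessels for KO AngII against WT sham was called for 5 genes, and for 5 to 7 under the alternatives and with 1 library left out, as Fryl (log2 0.43) and Ypel2 (0.40) lay near the threshold. KO AngII mesenteric arteries against aortas gave 4, and 3 without the 4 libraries over 10% not aligned. All other counts of the 7 genes were the same under every alternative.

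Counts over all genes moved more. WT AngII against WT sham mesenteric arteries had 32 called genes, and 309 with DESeq2, 16 with voom, 15 with library size alone, 49 with the stricter filter, 78 with only the groups compared and 8 (without WT sham library 1) to 116 (without KO AngII library 3) with 1 library left out. The tissue difference by which the genes were chosen had 434, and 836 with DESeq2, 272 with no filter, 719 without the libraries over 10% not aligned and 227 (without aortic WT sham library 4) to 639 (without mesenteric KO AngII library 3) with 1 left out. KO AngII against WT AngII had 1 in the aorta (DESeq2 6) and 1 in mesenteric arteries (57 without the libraries over 10% not aligned, DESeq2 2). KO AngII against WT sham mesenteric arteries had 124 (DESeq2 1403, only the groups compared 15, 289 without the libraries over 10% not aligned, 23 without WT sham library 2 to 156 without KO AngII library 3), and its tissue difference 683 (DESeq2 1119, no filter 447, 427 without aortic WT sham library 2 to 883 without mesenteric KO AngII library 3). With library size alone, 1747 genes were higher and 3729 lower in WT AngII than in WT sham aortas, beside 2475 and 1826, and 2192 higher and 4075 lower in KO AngII than in WT sham aortas, beside 2796 and 2401. Between the vessels of KO AngII mice 6715 were higher and 2648 lower in mesenteric arteries, beside 4955 and 3857. The tissue difference of the WT effect then had 188 higher and 183 lower, beside 126 and 308, that of KO AngII against WT sham 245 and 308, beside 182 and 501, and KO AngII against WT sham mesenteric arteries 65 and 70, beside 80 and 44. The cause of these moves was not tested.

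With the replicate block, the counts of the 7 genes were those without it: 7 for KO AngII against WT sham aortas, 0 for KO AngII against WT AngII in either vessel, 5 for the tissue difference of KO AngII against WT sham and 4 between the vessels of KO AngII mice. For libraries with the same number, deviations from the group mean correlated at -0.288 to 0.102 over 12 pairs in the aorta (median 0.0326). The range was -0.264 to 0.342 over 12 in mesenteric arteries (median 0.12) and -0.118 to 0.133 over 13 between vessels (median 0.0394). Libraries with different numbers were not compared in this way, so these values cannot settle whether the numbers mark pairs. The labels do not say so either, and the main fits did not pair the samples. The block moved the counts over all genes to 8 for WT AngII against WT sham mesenteric arteries, 20 for KO AngII against WT sham there, 190 for the tissue difference of the WT effect and 406 for that of KO AngII against WT sham.

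Depth limits the sham aortic values of Ttc9 and Megf10, which rest on 17 to 53 and 6 to 18 counts.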

Other observations

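Gm11783, a pseudogene annotated next to AI838599 on the same strand and looked at after its values were seen, had 3 to 11 counts in KO AngII, 6 to 16 in WT AngII and 7 to 14 in WT sham mesenteric libraries. In aortic libraries it had 0 to 11 counts in KO AngII, 4 to 6 in WT AngII and 24 to 43 in WT sham mice, with means of 0.216 ± 0.157, 0.193 ± 0.0313 and 1.05 ± 0.174 CPM in these groups (SD). The counts of the sham aortas do not overlap those of the infused aortas, as for AI838599, at levels near the lower limit of what was counted.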
